A study of Macaca mulatta with 48 samples.

Results

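The adult part of a single-cell RNA sequencing survey of rhesus monkey testes was described, in which the breeding season was set against the non-breeding season in the same animals. The cells were those of the 4 adult libraries: a pair from the breeding season and a pair from the non-breeding season, each pair holding animal 1 and animal 2. A barcode was kept with at least 300 detected genes, at most 30000 UMIs (unique molecular identifiers, the counted transcripts) and at most 3% of UMIs from mitochondrial genes, which left 29037 adult cells out of the 112150 cells of the whole series. The adults were 6 years of age, of no engineered genotype and under no drug. The testis taken in August stood for the non-breeding season and the remaining testis of the same animal, taken in December after removal of the other one, stood for the breeding season. Season is therefore tied to the order of surgery and to the side of the body, and these cannot be told apart. The question was how spermatogenesis and its supporting cells differ between the seasons. The aged animals, 22 years of age and collected by the same scheme, entered the clustering, the estimate of the spread between libraries and a comparison of the seasonal difference between the ages.

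The libraries were unequal. The non-breeding libraries held 9259 and 10323 barcodes, and the breeding library of animal 1 held 9390, of which 99.8% to 99.9% were kept. The breeding library of animal 2 held 333 barcodes, of which 117 (35.1%) were kept. It gave 206 barcodes over the mitochondrial limit, a median of 17.6% mitochondrial UMIs, and 870 UMIs for the median barcode. Total UMIs over all barcodes were 40620446 and 40500855 in the non-breeding libraries, 33414352 in the breeding library of animal 1 and 959819 in that of animal 2. Of the 117 cells kept in the last library, 46 (39.3%) had a barcode that also occurred in the breeding library of aged animal 1, while each of the other adult libraries shared 0.146% to 0.437% of its cells with any library other than this one. The origin of these cells is therefore in doubt, and each result that rests on this library as the breeding testis of animal 2 carries that doubt and is given without it where it decides a value. Predicted doublets (2235 cells) were left out, and 783 cells in clusters without a clear identity stayed unnamed, so that 26019 cells had a class. In non-breeding these were 8184 cells of animal 1 and 9309 of animal 2, and in breeding 8425 and 101. In 9 of the 11 classes tested, breeding was represented by animal 1 alone.

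Rhesus monkeys breed in autumn and winter, and the testis is larger and makes more sperm in that season. Germ cells pass from spermatogonia, which divide by mitosis, through spermatocytes, which pair and recombine their chromosomes, to round spermatids and then elongated spermatids, whose histones are replaced by transition proteins and protamines and which shed most of their cytoplasm. Sertoli cells enclose them, peritubular cells wrap the tubule, and Leydig cells between the tubules make testosterone under luteinising hormone. The classes were named from lists of markers. Counts of the same markers describe the classes and are no independent check of their names. All 12 elongated spermatid markers, 13 of 14 Sertoli markers, 11 of 13 early spermatocyte markers, 10 of 11 late spermatocyte markers and 10 of 12 round spermatid markers were highest in the class they define. The count was 7 of 14 for spermatogonia and 8 of 12 for interstitial stromal cells, and no marker was at 0 in its own class.

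Elongated spermatids took the larger share of the germ cells in both breeding testes, and spermatogonia and early spermatocytes the smaller. Elongated spermatids were 52.2% of germ cells in the breeding testis of animal 1 (Wilson 95% interval 51.1 to 53.4%) and 49.0% in that of animal 2 (39.3 to 58.7%). In the non-breeding testes they were 7.56% (6.65 to 8.57%) and 25.2% (24.1 to 26.2%). The seasons did not overlap, at 50.6 ± 2.31% against 16.4 ± 12.4% (SD, n = 2 animals each), and the share was higher in breeding by 44.7 and 23.8 percentage points within the 2 animals. Early spermatocytes, the cells of leptotene to early pachytene, were 42.8% and 12.3% of germ cells in the non-breeding testes and 2.01% and 3.06% in the breeding testes. Spermatogonia were 23.4% and 8.66% in the non-breeding testes and 2.33% and 1.02% in the breeding testes. Both classes were lower in breeding in each animal, early spermatocytes by 40.8 and 9.19 points and spermatogonia by 21.1 and 7.64 points. An exact two-sided permutation test that ignores the pairing gave p = 0.333 for each of these 3 classes, the smallest value that 2 against 2 libraries allows. Flipping the seasons within the 2 animals gave an exact p of 0.5, again the smallest possible. The intervals cover counting error only. Without the breeding library of animal 2, which held 98 germ cells, the difference was 35.9 points for elongated spermatids, -25.5 for early spermatocytes and -13.7 for spermatogonia.

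The middle of the lineage did not follow one order. Late spermatocytes were 19.4% and 15.4% of germ cells in the non-breeding testes and 20.4% and 37.8% in the breeding testes. The gap was 1.03 points in animal 1 and 22.4 points in animal 2, and the mean difference of 11.7 points became 3.03 points without the breeding library of animal 2 (exact p = 0.333). Round spermatids of animal 1 were 6.88% of germ cells in non-breeding and 23.0% in breeding, but those of animal 2 were 38.6% and 9.18%. The animals thus moved in opposite directions, by 16.1 and -29.4 points (exact permutation p = 1). The mean difference of -6.62 points became 0.30 points without the breeding library of animal 2.

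**Figure D1:**
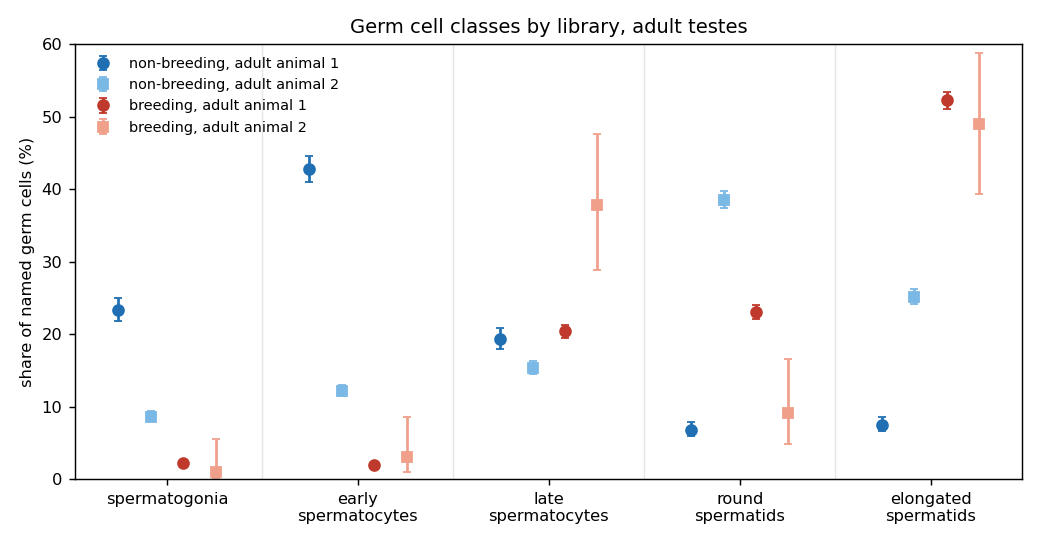
Share of named germ cells (percent, vertical axis) in each of 5 germ cell classes for the 4 adult libraries, non-breeding and breeding, with Wilson 95% intervals as bars. Elongated spermatids sit at 52.2% and 49.0% in breeding against 7.56% and 25.2% in non-breeding, and the bars of the breeding library of animal 2 are wide because it holds 98 germ cells.

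Ratios of neighbouring stages described the same cells without a common denominator. There were 0.323 and 2.91 elongated spermatids for each spermatogonium in the non-breeding testes of animals 1 and 2, and 22.4 in the breeding testis of animal 1 (95% interval 19.2 to 26.3); the breeding library of animal 2 held 48 elongated spermatids and 1 spermatogonium. Late spermatocytes for each early spermatocyte numbered 0.452 and 1.25 in non-breeding and 10.1 in the breeding testis of animal 1, with 37 against 3 cells in animal 2. Early spermatocytes for each spermatogonium numbered 1.83 and 1.42 in non-breeding and 0.865 in the breeding testis of animal 1 (0.689 to 1.08), with 3 against 1 cell in animal 2, the other way. Round spermatids for each late spermatocyte stood at 0.355 and 2.51 in non-breeding against 1.13 in animal 1, within that range, and 0.243 in animal 2 (9 against 37 cells), below it. Elongated spermatids for each round spermatid, at 1.10 and 0.653 against 2.27 and 5.33 (48 against 9 cells), did not overlap. Of these 4 ratios between neighbouring stages, that of late to early spermatocytes set the breeding testis of animal 1 furthest apart.

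Sertoli cells, which nourish the germ cells, were few beside the germ cells of the breeding testes. Germ cells for each Sertoli cell numbered 0.701 and 3.63 in the non-breeding testes and 13.2 in the breeding testis of animal 1 (12.1 to 14.5), and the breeding library of animal 2 held 98 germ cells and 2 Sertoli cells. Of all named cells, 35.3 ± 22.5% were Sertoli cells in non-breeding and 4.26 ± 3.22% in breeding (SD, n = 2 each). Among somatic cells alone, Sertoli cells were 79.9% and 65.0% in the non-breeding testes and 49.0% (46.1 to 51.9%) in the breeding testis of animal 1. Peritubular cells were 7.17% and 2.995% of somatic cells in non-breeding and 14.4% in breeding, and myeloid cells were 1.16% and 0.794% against 4.80%. Endothelial cells were 1.87% and 2.27% against 4.18%. Interstitial stromal cells, at 8.88% and 26.0% in non-breeding and 24.5% in breeding, lay within the range of the non-breeding testes, and T and NK cells, at 0.839% and 2.81% against 3.02%, lay just above it. The breeding library of animal 2 held 3 somatic cells, 2 of them Sertoli cells. With it, the Sertoli share of somatic cells was 57.8 ± 12.5% in breeding against 72.5 ± 10.6% in non-breeding (SD, n = 2 each, exact permutation p = 0.667). Steroidogenic Leydig cells were rare in every library, with 4 and 3 cells in non-breeding and 1 in breeding, and were not compared. Tissue was dissociated with collagenase and passed through a strainer, so the shares are those of recovered cells.

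**Figure D2:**
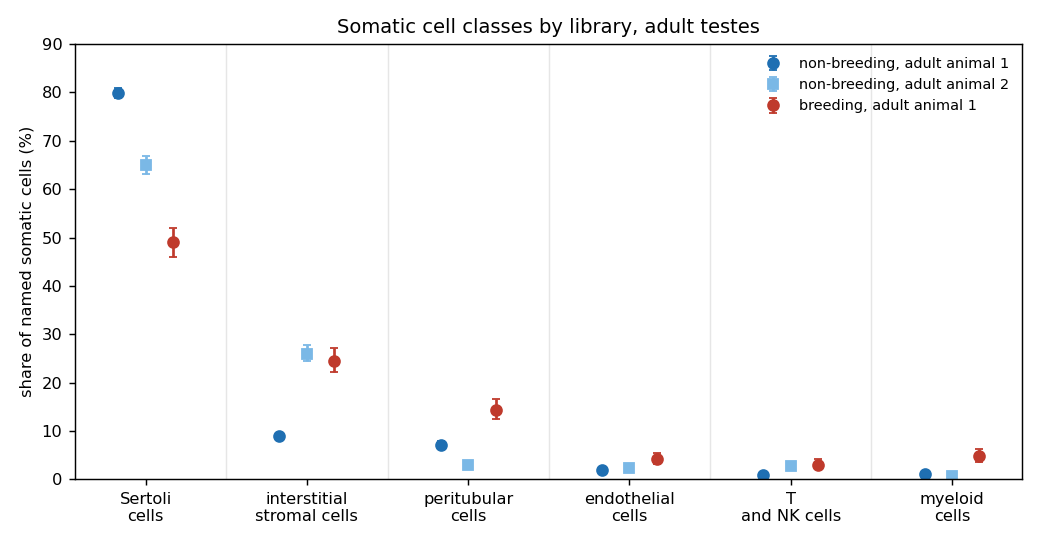
Share of somatic cells (percent, vertical axis) in each somatic class for the non-breeding testes of both animals and the breeding testis of animal 1, with Wilson 95% intervals as bars; the breeding library of animal 2, with 3 somatic cells, is not drawn. Sertoli cells stand at 79.9% and 65.0% against 49.0%, and peritubular and myeloid cells stand highest in the breeding testis.

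In some classes the libraries were spread over different clusters, which bears on the comparisons within those classes. In Sertoli cells, 86.2% of the non-breeding cells of animal 1 lay in a cluster led by AMH, ERBB4 and SERPINA5, 64.2% of those of animal 2 in a cluster led by DEFB122, PTGDS and APOA1, and 53.9% of the breeding cells in a cluster led by CTNNA2 and GPC5. In elongated spermatids, 80.6% and 68.0% of the non-breeding cells lay in a cluster led by PRM2, TNP2 and TSPAN16, whereas the breeding cells of animal 1 were spread over 4 clusters holding 43.2%, 26.4%, 13.98% and 12.1%. Peritubular cells lay mostly in 1 cluster in all 3 libraries, at 96.3%, 89.2% and 76.5%. The Sertoli cluster led by AMH held 3.05% of the non-breeding cells of animal 2 and 28.9% of the breeding cells of animal 1. The non-breeding testes thus also differed from each other. Early spermatocytes were alike, with 56.4% and 67.9% of the non-breeding cells and 56.5% of the breeding cells of animal 1 in the same cluster.

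Messenger RNA of elongated spermatids was found in every other class, and more of it in the breeding testes. The 12 marker transcripts of that class, among them the protamines PRM1 and PRM2 that pack sperm DNA and the transition proteins TNP1 and TNP2, made up 0.602% and 3.75% of all UMIs in non-breeding and 9.15% and 17.7% in breeding. In Sertoli cells their share of UMIs was 0.224% and 0.869% in non-breeding and 3.66% in breeding. In spermatogonia it was 0.134% and 0.549% against 3.35%, and in T and NK cells, which do not make sperm proteins, 0.390% and 1.92% against 8.88%. Among libraries with at least 20 cells of a class, the breeding share lay above both non-breeding shares in every class tested outside the spermatids. It did so in the whole libraries as well. Transcripts of Sertoli cells went the other way. The 14 Sertoli markers made up 0.256% and 0.228% of the UMIs of stromal cells in non-breeding and 0.0754% in breeding, and 0.107% and 0.0573% of those of elongated spermatids in non-breeding against 0.0231% and 0.0121% in breeding. Within Sertoli cells they made up 1.29% and 1.15% against 1.54%. Free RNA taken up in droplets and transcription in the cells cannot be told apart from these sums, and all gene values below stand beside them.

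**Figure D3:**
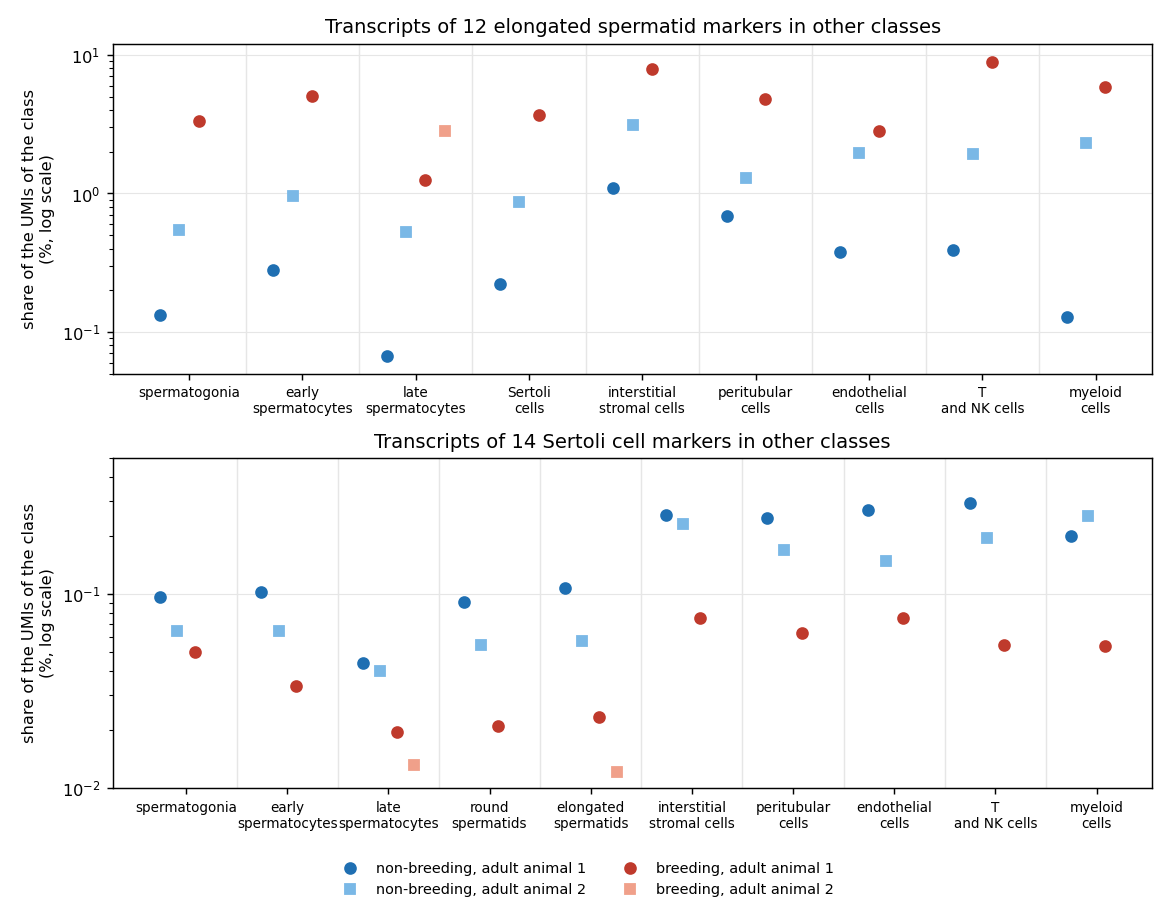
Percent of UMIs (log axis) from the 12 elongated spermatid transcripts in the other classes (upper panel) and from the 14 Sertoli markers in the other classes (lower panel), 1 point for each library with at least 20 cells of the class. Points of the breeding libraries lie above the non-breeding ones for spermatid transcripts and below them for Sertoli markers.

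Gene levels were summed over the cells of a class in each library and are given as CPM, the UMIs of a gene scaled by all UMIs of that class in that library; differences are log2 fold changes of breeding over non-breeding with their standard error. The test was edgeR's quasi-likelihood test with Benjamini-Hochberg adjustment within the class, at 0.05. Across 11 classes and 101040 tests, 115 calls were made, all higher in breeding: 114 in spermatogonia and 1 in peritubular cells. Of these, 109 were genes at least 10 times higher in spermatids than in the non-breeding cells of the class. With no change at all, a fraction of 0.05 of the genes would have an unadjusted p under 0.05. The share found was 3.62% in endothelial cells, 4.23% in myeloid cells, 4.58% in round spermatids and 5.03% in Sertoli cells. In the other classes it was higher, up to 13.4% in late spermatocytes. A second fit kept the animal as a block, since both testes came from the same animal; it made 5478 calls higher and 2614 lower. The unblocked counts also rest on the non-breeding library of animal 2: without it, edgeR called 337 genes in spermatogonia, 380 in early spermatocytes, 1223 in late spermatocytes, 565 in Sertoli cells, 535 in stromal cells, 179 in peritubular cells, 266 in endothelial cells, 310 in T and NK cells and 219 in myeloid cells, which leaves 1 animal in each adult season wherever animal 2 has no breeding cells. In all classes but late spermatocytes and elongated spermatids, the blocked change is that of animal 1 alone, with its error taken from the aged pairs. Where the breeding library of animal 2 is left out, this holds for late spermatocytes and elongated spermatids as well. A blocked p then measures the spread between aged animals and not between adult ones. Of the blocked calls higher in breeding, spermatid transcripts of the same kind were 587 of 665 in Sertoli cells, 329 of 445 in spermatogonia and 397 of 533 in early spermatocytes, but 136 of 827 in stromal cells and 29 of 116 in T and NK cells. As a description, a gene is said to lie above or below when its breeding level lay above or below both non-breeding levels.

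Spermatogonia carried nearly all of the unblocked calls. Of 9770 genes tested, 114 rose, which is 1.17%, and none fell. The blocked fit called 4.55% higher and 0.389% lower, and 30.8% of the genes lay above and 47.8% below. Genes of spermatid differentiation led the calls. CABS1, a sperm calcium-binding protein, stood at 14.5 and 17.5 CPM in the non-breeding libraries and 208 in the breeding one, apart from both, and rose by 3.76 ± 0.35 on the log2 scale (adjusted p = 0.00197). PRM2 rose by 3.44 ± 0.63 (adjusted p = 0.0239), from 153 and 495 to 3343 CPM. AKAP4, the scaffold of the sperm fibrous sheath, rose by 3.02 ± 0.48 (adjusted p = 0.0144), from 26.5 and 54.8 to 314 CPM. The 11 spermatid transcripts tested all lay above, and 8 of them rose. PRM1, at 787 and 3700 against 23084 CPM, did not pass (adjusted p = 0.129) and passed with the block (adjusted p = 4.06e-10). With free RNA subtracted as well it did not pass, with 0 UMIs left in both libraries of animal 1. The estimate is set from the spermatid transcripts themselves, PRM1 among them, so subtraction lowers their sum by construction and cannot test them.

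The other 6 calls in spermatogonia were REEP6, PGAP6, FUNDC2, RCC1, LMBR1L and SLC39A13. REEP6, a shaper of the endoplasmic reticulum, stood at 88.5 and 107 CPM in non-breeding and 390 in breeding and rose by 2.06 ± 0.31 (adjusted p = 0.0117). PGAP6 rose by 2.38 ± 0.39 (adjusted p = 0.0156), from 20.3 and 25.6 to 114 CPM. FUNDC2, a protein of the outer mitochondrial membrane, rose by 1.78 ± 0.31 (adjusted p = 0.0181), from 57.9 and 67.0 to 205 CPM. These genes were under the 10-fold limit, yet their levels in spermatids were also above those in spermatogonia: 940 CPM for REEP6, 214 for PGAP6 and 468 for FUNDC2. No gene was called when the estimated free RNA was subtracted, nor when predicted doublets were left in, although REEP6, PGAP6 and FUNDC2 still differed by 3.41, 2.71 and 1.48 in the first case, and PGAP6 and FUNDC2 by 2.40 and 1.97 in the second. With the block and free RNA subtracted, 15 genes were called, REEP6 (adjusted p = 0.00148) and PRM2 (5.47, adjusted p = 0.000416) among them. REEP6 was then at 0 UMIs in the non-breeding library of animal 1, so its fold has no fixed size. Others shrank: SLC39A13 differed by 0.64, LMBR1L by 1.06 and AKAP4 by 1.65, against 1.59, 1.74 and 3.60 with the block alone. PGAP6 went the other way, at 3.28 against 2.53. CABS1 kept 0 UMIs in the breeding library of animal 1. PRM2, AKAP4 and CABS1 are among the transcripts that set the estimate, so their values after subtraction are no test of them. With spermatid-high genes left out of the test, 6 were called. 

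The genes that keep spermatogonia as stem cells showed no call in either fit. Of the 14 tested, 3 lay above and 8 below, not far from the 30.8% and 47.8% of all genes, with a median log2 difference of -0.21 beside -0.04 for all genes. UTF1, a chromatin factor of undifferentiated spermatogonia, stood at 423 and 437 CPM in non-breeding and 278 in breeding, a difference of -0.56 ± 0.40 (adjusted p = 0.965). ETV5, a transcription factor downstream of GDNF, had 66.2 and 81.8 CPM against 32.2, a difference of -1.13 ± 0.41 (unadjusted p = 0.0174, adjusted p = 0.457); it was singled out after its values were seen. GFRA1, the GDNF receptor, stood at 31.4 and 33.3 CPM in non-breeding and 38.1 in breeding. The 8 genes of differentiating spermatogonia likewise gave 2 above, 5 below and a median of -0.20. The breeding value rests on 170 cells, where 3 UMIs make 8.79 CPM.

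Early spermatocytes in the breeding testis of animal 1 held higher levels of many genes of the synaptonemal complex and of recombination, without a call. Of 10089 genes, edgeR called 0%, while 616 had an unadjusted p under 0.05 and DESeq2 called 99, all higher. The blocked fit called 5.28% higher and 0.228% lower, and 28.6% of genes lay above and 50.9% below. Of the 25 genes of the complex, 16 lay above and 8 below, and none passed with the block; the median was 0.44 beside -0.03 for all genes. SYCP1, the transverse filament of the complex, stood at 203 and 212 CPM in non-breeding and 343 in breeding, a difference of 0.87 ± 0.50 (adjusted p = 0.971). SYCP2, of the lateral element, stood at 204 and 172 against 362 CPM. HORMAD1, which marks unpaired chromosome axes, stood at 133 and 108 against 200 CPM, and MSH4, which stabilises crossovers, at 56.1 and 44.5 against 112. Not all members lay above: SMC1B, the meiotic cohesin, stood at 1045 and 731 against 686 CPM and STAG3 at 126 and 143 against 84.7. HORMAD1 and MSH4 were singled out after their values were seen. Spermatid transcripts moved in the same cells, with 11 of 11 above and 11 called in the blocked fit. The breeding value rests on 147 cells.

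The genes that tie spermatocytes to their neighbours were mostly lower in the breeding early spermatocytes. Of 16 junction genes tested, 1 lay above and 13 below, where 50.9% of all genes lay below, with a median of -0.55, and none passed either fit. Sertoli markers were lower in the same cells, at 0.103% and 0.0646% of UMIs in non-breeding and 0.0335% in breeding, and their part in the junction genes was not tested. AFDN, which links nectins to actin, stood at 226 and 233 CPM in non-breeding and 135 in breeding (log2 difference -0.62 ± 0.36, adjusted p = 0.975). With the block it differed by -0.60, and by -0.21 with free RNA subtracted as well. Genes of the meiotic divisions gave 5 of 23 above and 11 below, with a median of 0.03.

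Late spermatocytes and elongated spermatids were the 2 classes in which both breeding animals could be set against both non-breeding ones. The make-up of the late spermatocytes differed: 72.6% of the non-breeding cells of animal 1 lay in a cluster led by ANKRD30A, ZNF572 and CKS2, which held 29.95% of those of animal 2 and 15.7% of the breeding cells of animal 1. A cluster led by PLK1 and other genes of the divisions held 39.5% of the non-breeding cells of animal 2 and 48.8% of the breeding cells of animal 1, and 59.5% of the 37 breeding cells of animal 2 lay in another cluster. The class therefore spans pachytene to the divisions in different proportions, and its share in the gene differences was not tested. Of 13745 genes, edgeR called 0%, with 1840 at an unadjusted p under 0.05, and DESeq2 called 3 higher and 7 lower. With the block, 12.8% were called higher and 12.7% lower; 12.3% lay above and 35.8% below. The scaling moved the median of all genes from -0.06 with TMM factors to -0.21 with DESeq2's size factors. The breeding library of animal 2 gave 45424 UMIs, so that 1 UMI makes 22.0 CPM and 3 UMIs make 66.0.

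In late spermatocytes of both breeding testes SYCP1 and SMC1B lay below the non-breeding levels, but the list of the synaptonemal complex and recombination lay below in 9 of 26 genes, a share near the 35.8% of all genes. SYCP1 stood at 344 and 205 CPM in non-breeding and at 85.1 and 110 in breeding, without overlap, a difference of -1.47 ± 0.38 (adjusted p = 0.34; with the block -1.62, adjusted p = 0.000806). SMC1B stood at 230 and 105 CPM against 58.7 and 44.0 (-1.38 ± 0.44, adjusted p = 0.34; with the block -1.68, adjusted p = 0.00018). MEIOB, a single-strand DNA binding protein of recombination, stood at 129 and 47.6 CPM against 22.8 and 0 (-1.85 ± 0.63, adjusted p = 0.34; with the block -2.27, adjusted p = 3.99e-08). The 0 of MEIOB allows up to 66.0 CPM, so its order rests on animal 1. In the breeding library of animal 2 the 44.0 CPM of SMC1B are 2 UMIs, under that floor, and the 110 CPM of SYCP1 are 5 UMIs. The place of both genes in animal 2 rests on these few counts. All 3 thus passed in the blocked fit alone, and were chosen for display after their values were seen. Without the breeding library of animal 2, the blocked differences were -1.72 for SYCP1, -1.67 for SMC1B and -2.20 for MEIOB, and all 3 passed; they also passed with the block and free RNA subtracted (adjusted p = 0.0395, 0.0218 and 0.0134). Of the list, 2 genes lay above. The block called 6 of the 26 lower, which were SYCP1, MSH4, MEIOB, SMC1B, CCNB1IP1 and RNF212. It called 1 higher, REC8, which is higher in spermatids. Of all genes it called 12.7% lower and 12.8% higher. SYCP3, of the lateral element, stood at 355 and 209 CPM in non-breeding and 296 and 242 in breeding, and HORMAD2 at 644 and 514 against 641 and 440, so both seasons overlapped. The median of the list was -0.41 with TMM factors and -0.57 with DESeq2's size factors.

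Genes of the meiotic divisions did not move together. PLK1, a kinase of the entry into division, stood at 83.5 and 189 CPM in non-breeding and 270 and 242 in breeding, above without overlap (1.03 ± 0.43, adjusted p = 0.357; with the block 1.27, adjusted p = 0.0127, and 1.25, adjusted p = 0.19, with free RNA subtracted as well). The 242 CPM of PLK1 in the breeding library of animal 2 are 11 UMIs, so its place there rests on few counts. CCNA1, the cyclin of male meiosis, stood at 286 and 587 CPM against 618 and 462, and CDK1 at 317 and 392 against 348 and 198, both with overlap. Of 24 genes, 4 lay above and 4 below, where 12.3% and 35.8% of all genes did, and the block called CDC25A and PLK1 higher and BUB1B and ESPL1 lower, near the 12.8% and 12.7% called over all genes. PLK1 also leads a cluster that differs in share between the libraries, and it was named after its value was seen.

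Several spermatid genes were higher in the late spermatocytes of both breeding testes. PRM1 stood at 430 and 3575 CPM in non-breeding and 8755 and 16731 in breeding (2.58 ± 0.80, adjusted p = 0.34; with the block 3.29, adjusted p = 1.55e-07). PRM2 stood at 73.7 and 477 against 1194 and 4777 CPM (with the block 3.67, adjusted p = 6.88e-13), and HMGB4, a spermatid chromatin protein, at 112 and 1089 against 1519 and 3214. The non-breeding testes also differed from each other, that of animal 2 lying between that of animal 1 and both breeding testes. In the blocked fit 8 of 12 genes of the histone to protamine exchange, 9 of 19 acrosome genes and 14 of 30 flagellum genes passed as higher, where 12.8% of all genes did. It called 1 exchange gene and 1 flagellum gene lower. In both breeding libraries 7 exchange, 13 acrosome and 8 flagellum genes lay above, and 1, 1 and 4 lay below. Of all genes 12.3% lay above and 35.8% below. SPACA3, of the acrosome, stood at 4.80 and 44.0 CPM against 74.2 and 132, and IZUMO2, a sperm membrane protein, at 11.1 and 51.6 against 83.7 and 220. PHF7, a histone ubiquitin ligase expressed from meiosis on, stood at 2531 and 2429 CPM in non-breeding and 2497 and 2488 in breeding. Spermatid transcripts made up 0.0673% and 0.524% of the UMIs of these cells in non-breeding and 1.26% and 2.82% in breeding.

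Several further genes separated the seasons in late spermatocytes. BMS1, a GTPase of ribosome assembly, stood at 577 and 594 CPM in non-breeding and 187 and 220 in breeding, the non-breeding libraries close together and both breeding ones below (-1.48 ± 0.29, adjusted p = 0.34; with the block -1.48, adjusted p = 0.00385). MACROD2 stood at 908 and 599 CPM against 349 and 198 (-1.20 ± 0.37; with the block -1.37, adjusted p = 0.00904). HSP90AA1, the inducible cytosolic HSP90, stood at 6327 and 3299 CPM against 2525 and 1761 and passed neither fit (with the block -1.12, adjusted p = 0.0512). Without the breeding library of animal 2 its blocked difference, then that of animal 1 alone, was -1.03. Among 17 junction genes none lay above and 12 lay below, with 7 called lower in the blocked fit, where 35.8% of all genes lay below and 12.7% were called lower. Sertoli markers were lower in the same cells, at 0.0439% and 0.0403% of UMIs in non-breeding and 0.0194% and 0.0132% in breeding, and their part in this was not tested. TJP1, the ZO-1 scaffold of tight junctions, stood at 89.9 and 57.2 CPM against 29.7 and 22.0 (-1.15 ± 0.38, adjusted p = 0.34; with the block -1.35, adjusted p = 0.0018). The 22.0 CPM of TJP1 are 1 UMI, under the floor of 66.0 CPM, so its order rests on animal 1. With the block and free RNA subtracted TJP1 differed by -0.20 (adjusted p = 0.959), while BMS1 (-1.58, adjusted p = 0.0635) and MACROD2 (-1.52, adjusted p = 0.0913) kept their size and did not pass. AFDN stood at 128 and 73.6 CPM against 49.7 and 0, where the 0 allows up to 66.0 CPM; it also lay below in early spermatocytes.

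**Figure D4:**
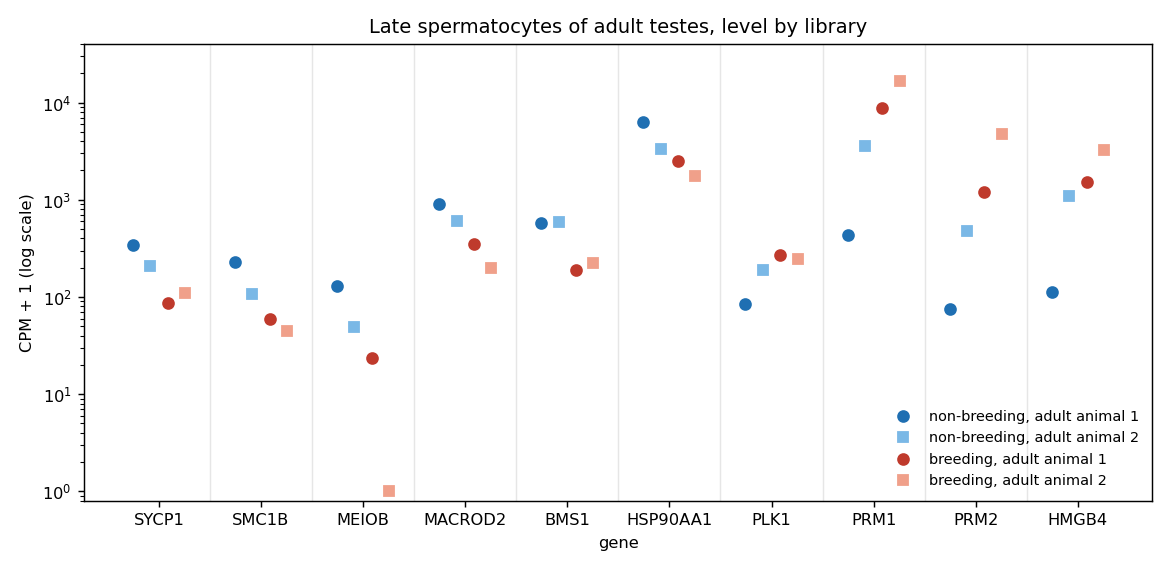
Level in late spermatocytes (CPM + 1, log axis) of 10 genes in the 4 adult libraries, 1 point for each library. SYCP1, SMC1B, MACROD2, BMS1 and HSP90AA1 lie lower in both breeding libraries and PLK1, PRM1, PRM2 and HMGB4 lie higher. In the breeding library of animal 2, SYCP1 rests on 5 UMIs, SMC1B on 2, MACROD2 on 9, BMS1 on 10 and PLK1 on 11. MEIOB is at 0 in the breeding library of animal 2, which allows up to 66.0 CPM, so its order rests on animal 1.

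Round spermatids of the breeding testis of animal 1 held more protamine mRNA than both non-breeding libraries. PRM1 stood at 2878 and 4911 CPM in non-breeding and 11011 in breeding (1.62 ± 0.47, adjusted p = 1; with the block 2.10, adjusted p = 5.01e-31), and PRM2 at 444 and 664 against 1469. TNP1 stood at 588 and 473 against 974 CPM. With TNP2, these were the 4 of 12 exchange genes that passed with the block. Spermatid transcripts made up 0.7665% and 1.0008% of the UMIs of these cells in non-breeding and 1.8875% in breeding animal 1. No free RNA was subtracted from round spermatids, and the part of free RNA in the protamine values was not tested. Other genes of sperm assembly also lay above. SPACA3 stood at 752 and 599 CPM against 806, SMCP, of the mitochondrial sheath, at 1903 and 1951 against 2508, and ODF2, of the outer dense fibres, at 1035 and 1297 against 1559. Of 19 acrosome genes 14 lay above, where 22% of all genes did, and 3 below with none called, and of 30 flagellum genes 13 lay above and 12 below with ODF2 called in the blocked fit. Of 15411 genes edgeR called 0%, with 706 at an unadjusted p under 0.05, and DESeq2 called 1 higher and 18 lower; the block called 0.5% higher and 1.81% lower, and 44.5% lay below. Round spermatids were spread over different clusters, with 40.1% of the non-breeding cells of animal 1 in the largest and 35.5% of the breeding cells in another.

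In elongated spermatids no gene of the exchange, acrosome or flagellum lists passed either fit. PRM1 stood at 125727 and 107328 CPM in non-breeding and 138498 and 154145 in breeding (0.38 ± 0.28, adjusted p = 0.703). PRM2 stood at 17739 and 13776 against 14483 and 62780 CPM, where only the breeding library of animal 2 stood apart (1.28 ± 0.42, adjusted p = 0.595; 0.29 without that library). Of 12 exchange genes 1 lay above and 3 below, of 19 acrosome genes none above and 9 below and of 30 flagellum genes 4 above and 10 below. GAPDHS, the glycolytic enzyme of sperm, stood at 1644 and 1532 CPM against 1703 and 848, with overlap. AKAP4 stood at 853 and 906 CPM against 1429 and 1906, above in both animals (0.97 ± 0.30, adjusted p = 0.595). Of 12453 genes edgeR called 0%, with 1035 at an unadjusted p under 0.05, and DESeq2 called none. The block called 0.145% higher and 1.82% lower, and 6.31% of genes lay above and 43.7% below; the median of all genes was -0.34.

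Few genes passed the blocked fit in elongated spermatids. TMEM147, of the endoplasmic reticulum membrane, stood at 764 and 1188 CPM in non-breeding and 1292 and 3404 in breeding (with the block 1.19, adjusted p = 0.0469). TSPAN6 stood at 502 and 571 against 666 and 2247 CPM (1.25, adjusted p = 0.045), and FSCB, of the fibrous sheath, at 73.5 and 76.1 against 135 and 264 (1.37, adjusted p = 0.0468). The breeding library of animal 2 was the highest for all 3, and without it TSPAN6 (0.85, adjusted p = 0.306) and FSCB (1.32, adjusted p = 0.159) no longer passed the blocked fit. Lower in breeding were RPS7, a ribosomal protein, at 690 and 728 against 327 and 209 CPM (-1.31, adjusted p = 0.0417), and TEX29 at 489 and 498 against 272 and 44.1 (-1.60, adjusted p = 0.0173). Without the same library they gave -0.64 (adjusted p = 0.54) and -0.41 (adjusted p = 0.75). TMSB10, which binds actin, stood at 729 and 266 against 74.9 and 242 CPM (-1.86, adjusted p = 0.00561). The Sertoli genes CST9L and FATE1 were lower in the same cells, CST9L at 493 and 289 CPM against 76.5 and 88.1 and FATE1 at 426 and 193 against 57.0 and 44.1. In Sertoli cells themselves CST9L stood at 3195 and 3758 CPM in non-breeding and 3294 in breeding.

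In Sertoli cells FSHR, AMH, INHA, CLDN11 and TJP1, genes of hormone response and of the barrier, differed by less than their standard errors between the seasons. FSHR, the receptor of follicle-stimulating hormone, stood at 362 and 268 CPM in non-breeding and 371 in breeding (0.34 ± 0.48, adjusted p = 1). AMH, the anti-Müllerian hormone, stood at 2471 and 1469 against 2550 CPM and INHA, the inhibin subunit, at 1162 and 1170 against 1397. CLDN11, the claudin of the blood-testis barrier, stood at 705 and 628 against 629 CPM and TJP1 at 829 and 622 against 644, so that the breeding level lay at the edge of or within the non-breeding range. Of 21 hormone and support genes 7 lay above and 5 below, with a median of 0.03; of 21 junction genes 2 lay above and 10 below, with a median of -0.04. With the block CLDN3, at 69.3 and 10.7 against 6.19 CPM, and DSP, at 21.5 and 1.05 against 0 CPM, passed as lower. The 0 of DSP allows up to 2.65 CPM, above its level in non-breeding animal 2. Of 9971 genes edgeR called 0%, with 502 at an unadjusted p under 0.05, and DESeq2 called 36 higher. The block called 6.67% higher and 0.401% lower, and 22.9% lay above and 44.6% below. A wide interval remained around these even values, since the standard errors of FSHR and AMH were 0.48 and 0.59 on the log2 scale.

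PDE4D was the 1 gene of the hormone and support list that passed with the block. This enzyme, which breaks down the cAMP made after FSH binds, stood at 55.4 and 86.3 CPM in non-breeding and 235 in breeding (1.85 ± 0.52, adjusted p = 0.302; with the block 2.17, adjusted p = 0.0351). CLU, the secreted chaperone clusterin, stood at 3040 and 3409 against 5653 CPM (0.92 ± 0.65, adjusted p = 1). ALDH1A2, which makes retinoic acid, stood at 53.5 and 39.3 against 109 CPM (1.33 ± 0.48, adjusted p = 0.6). Each of the 3 lay above both non-breeding libraries. Of 8 retinoic acid genes 4 lay above and 3 below, where 22.9% and 44.6% of all genes did, with a median of 0.34, and RXRG, a gene high in spermatids, was the 1 called higher with the block, as were 6.67% of all genes, at 6.03 and 28.8 against 21.2 CPM.

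Of the lists read in Sertoli cells, cholesterol synthesis had the lowest median. Of 15 genes 1 lay above and 12 below, where 44.6% of all genes lay below, with a median of -0.64 beside -0.07 for all genes and no call in either fit. HMGCS1, an early enzyme of the pathway, stood at 78.4 and 133 CPM in non-breeding and 40.7 in breeding (-1.26 ± 0.52, adjusted p = 0.807). FDPS stood at 75.7 and 102 against 41.6 CPM, and MVD at 43.4 and 30.9 against 15.9. All 3 enzymes lay below both non-breeding levels. Outside the lists, ZFPM2, a partner of GATA4, stood at 454 and 328 against 85.7 CPM (-2.08 ± 0.80, adjusted p = 0.681; with the block -2.32, adjusted p = 0.00274), SPATS2L at 158 and 86.1 against 23.9 (with the block -2.64, adjusted p = 0.000174), and WFDC2, a secreted protease inhibitor, at 295 and 52.1 against 47.7 (with the block -2.54, adjusted p = 0.000156). WFDC2 differed as much between the non-breeding testes as between seasons, and leaving out non-breeding animal 1 gave a difference of 0.02. With the block and free RNA subtracted, PDE4D (2.63), ZFPM2 (-2.46), SPATS2L (-2.43) and WFDC2 (-2.31) did not pass, with adjusted p from 0.741 to 1. SMCP, a sperm gene, stood at 77.8 and 454 against 1543 CPM in the same cells.

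Interstitial stromal cells, marked by DCN, gave lower levels of several genes of steroid synthesis in the breeding testis of animal 1. CYB5A, the cytochrome b5 that aids androgen synthesis, stood at 314 and 318 CPM in non-breeding and 115 in breeding (-1.28 ± 0.50, adjusted p = 0.436; with the block -1.22, adjusted p = 0.0405). TSPO, of the outer mitochondrial membrane, stood at 541 and 392.2 against 211.7 CPM (-0.96 ± 0.46, adjusted p = 0.563; with the block -1.13, adjusted p = 0.0391). FDXR, the ferredoxin reductase, stood at 125 and 93.5 against 40.9 CPM and passed neither fit (with the block adjusted p = 0.081). The estimate of free RNA reached 100% of the UMIs of these cells in the non-breeding library of animal 1, and 82.8% and 86.4% in the other libraries, so subtracting it tells nothing of their direction. Of 10 steroid genes 2 lay above and 7 below, where 51.3% of all genes lay below. Sertoli markers were lower in the same cells, at 0.256% and 0.228% of UMIs in non-breeding and 0.0754% in breeding. Their part in the steroid genes was not tested. The enzymes that define Leydig cells were near or at 0: INSL3 gave 0 UMIs in all 3 libraries, CYP17A1 gave 2, 4 and 0 and CYP11A1 gave 2, 2 and 0. The receptor of luteinising hormone, LHCGR, gave 9, 26 and 12 UMIs, or 16.8 and 36.3 CPM against 44.6.

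The matrix of the stroma was mixed. TIMP1, an inhibitor of matrix metalloproteinases, stood at 2018 and 2517 CPM in non-breeding and 4378 in breeding (1.12 ± 0.72, adjusted p = 0.702; with the block 1.34, adjusted p = 0.000499) and was the 1 matrix gene of 28 called with the block. DCN stood at 6458 and 5206 against 5934 CPM. Of 28 genes 11 lay above and 8 below, with a median of 0.19 beside -0.11 for all genes. Of 9466 genes edgeR called 0%, with 883 at an unadjusted p under 0.05, and DESeq2 called 83 higher and 4 lower; the block called 8.74% higher and 1.42% lower, and 24.3% lay above and 51.3% below. Spermatid transcripts were 1.10% and 3.10% of the UMIs of these cells in non-breeding and 7.91% in breeding.

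Peritubular cells showed contractile genes above and matrix genes below. ACTA2, smooth muscle actin, stood at 4312 and 4493 CPM in non-breeding and 5577 in breeding (0.45 on the log2 scale, adjusted p = 0.846), TAGLN at 2344 and 2190 against 2860 and TPM2 at 1103 and 1297 against 1744. MYH11, the smooth muscle myosin, lay the other way at 2829 and 2030 against 1504 CPM (-0.60 ± 0.61, adjusted p = 0.79). Of 14 contractile genes 9 lay above, where 32.1% of all genes did, and 3 below, with a median of 0.44 beside 0.00. RERGL stood at 5.59 and 28.2 against 66.3 CPM and alone passed with the block (3.53, adjusted p = 0.0024); it leads a cluster that holds more of the breeding cells, and was named after its value was seen. COL1A1 stood at 1362 and 771 against 505 CPM (-1.002 ± 0.57, adjusted p = 0.569), COL3A1 at 772 and 865 against 398, and COL15A1, of the basement membrane, at 201 and 132 against 56.1 (-1.53 ± 0.57, adjusted p = 0.292; with the block -1.78, adjusted p = 0.0391). Of 27 matrix genes 4 lay above and 22 below, where 38.9% of all genes lay below; COL15A1 was the 1 called with the block. These collagens were chosen for display after their values were seen. In the same cells Sertoli markers were 0.248% and 0.169% of UMIs in non-breeding and 0.0632% in breeding, and spermatid transcripts 0.690% and 1.29% against 4.82%. Their part in these lists was not tested.

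In peritubular cells edgeR called PPP1R32, of 6672 genes, or 0.015%. It stood at 3.73 and 9.40 CPM in non-breeding and 209 in breeding and rose by 5.40 ± 0.72 (adjusted p = 0.0499), but it is a gene high in spermatids, at 418 CPM there. With predicted doublets left in it differed by 4.34 and did not pass (adjusted p = 0.125), nor did it without the non-breeding library of animal 1 (4.53, adjusted p = 0.42). With free RNA subtracted it was not tested; the estimate was 100% of the UMIs in the non-breeding library of animal 1. With the block 8.9% were called higher and 1% lower. Of the blocked calls higher in breeding, 458 of 594 were spermatid-high genes.

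Endothelial, myeloid and T and NK cells numbered from 22 to 98 in each library, and edgeR called no gene in them. In endothelial cells 0% of 7376 genes were called, with 267 at an unadjusted p under 0.05 and none by DESeq2; the block called 3.95% higher and 0.475% lower, and 31.4% lay above and 29.2% below. Genes of antigen presentation lay above in 7 of 8, with a median of 0.28 and no call in either fit. CD74, the invariant chain of class II molecules, stood at 2073 and 1596 CPM in non-breeding and 2649 in breeding, and MAMU-DMB at 206 and 195 against 391 (0.95 ± 0.49, adjusted p = 1). CLDN5, the claudin of endothelial junctions, stood at 563 and 514 against 355 CPM, while 7 of 18 junction genes lay above and 7 below.

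In myeloid cells 0% of 2622 genes were called, with 111 at an unadjusted p under 0.05 and 2 lower by DESeq2. The block called 5.64% higher and 0.458% lower, and 27.7% lay above and 30.4% below. CD74 stood at 7592 and 3359 CPM in non-breeding and 10825 in breeding, and 7 of 9 antigen presentation genes lay above. The median of that list was 0.44, but within animal 1, in the blocked fit, it was -0.14, so its direction was not the same. APOA1, an apolipoprotein that Sertoli cells of these libraries held at 2590 and 3484 against 3515 CPM, stood in myeloid cells at 440 and 928 against 57.1 (-3.58 ± 0.89, adjusted p = 0.918; with the block -3.17, adjusted p = 0.0454). With free RNA subtracted as well it did not pass (adjusted p = 0.506), its breeding UMIs then being 0. Of 10 ligand and receptor genes that the study chose on these samples, and which are thus no independent evidence, 2 lay above and 6 below in myeloid cells.

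In T and NK cells 0% of 3465 genes were called, with 375 at an unadjusted p under 0.05 and none by DESeq2. The block called 3.35% higher and 0.26% lower, and 33.7% lay above and 39.6% below. NR3C1, the glucocorticoid receptor, stood at 234 and 168 CPM in non-breeding and 18.1 in breeding (-3.30 ± 1.35, adjusted p = 0.336), where 1 UMI makes 18.1 CPM. The estimate of free RNA was 64.7% and 51.2% of the UMIs of these cells in non-breeding and 97.0% in breeding. Its part in the NR3C1 values was not tested. NR3C1 did not separate the seasons in this way in spermatogonia, at 125 and 118 against 120 CPM. Nor did it in endothelial cells, at 206 and 133 against 209 CPM.

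Lists that apply to every class were read across them. Genes of oxidative phosphorylation lay below in 55 of 69 in Sertoli cells (44.6% of all genes), 54 of 70 in stromal cells (51.3%) and 46 of 72 in elongated spermatids (43.7%), with medians of -0.26, -0.30 and -0.64 beside -0.07, -0.11 and -0.34 for all genes. In late spermatocytes 18 of 72 lay below, under the 35.8% of all genes, in spermatogonia 18 of 70 lay above and 18 below, where 47.8% of all genes lay below, and in peritubular cells 16 of 67 lay above and 19 below, where 38.9% did. NDUFA4, of the respiratory chain, stood at 98.0 and 46.2 CPM against 12.5 and 0 in elongated spermatids, at 73.9 and 33.2 against 7.73 in round spermatids and at 45.3 and 25.5 against 7.24 and 0 in late spermatocytes, and passed with the block in each. The values of 0 allow up to 33.0 CPM in elongated spermatids and 66.0 in late spermatocytes. In Sertoli cells, at 590 and 410 against 361 CPM, and in endothelial cells, at 491 and 346 against 401, it passed neither fit. Sertoli markers were lower in breeding in the same germ cell classes, and their part in the NDUFA4 values was not tested. COX7B followed the same order in round spermatids, at 74.9 and 28.1 against 8.44 CPM. Both were singled out after their values were seen.

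FOS, an immediate early gene induced within minutes of a stimulus, was lower in the breeding testis of animal 1 in germ cells after the early stages. It stood at 10.9 and 12.3 CPM in non-breeding and 0.546 and 0 in breeding late spermatocytes, at 9.99 and 11.5 against 0.703 in round spermatids and at 21.9 and 17.9 against 1.34 and 0 in elongated spermatids. The blocked changes were -4.03, -3.64 and -3.90 (adjusted p = 1.04e-06, 0.00264 and 0.0015). The values of 0, in the breeding library of animal 2, allow up to 66.0 and 33.0 CPM, above the non-breeding levels, so that the order of FOS rests on animal 1. In Sertoli cells FOS stood at 621 and 965 against 325 CPM and in endothelial cells at 469 and 1073 against 583, and it passed neither fit. Sertoli markers were also lower in the 3 germ cell classes. They made up 0.0439% and 0.0403% of UMIs in non-breeding and 0.0194% and 0.0132% in breeding late spermatocytes. In round spermatids they made up 0.0913% and 0.0547% against 0.021%, and in elongated spermatids 0.107% and 0.0573% against 0.0231% and 0.0121%. Their part in the FOS values was not tested, and no free RNA was subtracted from spermatids. The list of heat shock and immediate early genes did not follow FOS throughout. In late spermatocytes 10 of 19 lay below, where 35.8% of all genes did. The block called 5 lower, and 4 higher, which were NR4A1, KLF4, ATF3 and NR4A2. Of all genes it called 12.7% lower and 12.8% higher. It lay below in 13 of 19 genes in elongated spermatids (43.7% of all genes), 12 of 20 in peritubular cells (38.9%) and 10 of 23 in Sertoli cells (44.6%), the last near the share of all genes. The values of FOS in germ cells were chosen after they were seen.

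Clock genes gave few differences. CLOCK stood at 59.9 and 42.6 CPM in non-breeding and 21.7 and 0 in breeding late spermatocytes (-1.15 ± 0.48, adjusted p = 0.358; with the block -1.27, adjusted p = 0.00342), where the 0 allows up to 66.0 CPM, and at 177 and 171 against 135 in spermatogonia. PER1 stood at 77.7 and 71.4 against 56.6 CPM in Sertoli cells and 113 and 81.9 against 82.8 and 132 in late spermatocytes. Of 14 clock genes in stromal cells 1 lay above and 10 below, where 51.3% of all genes lay below, and of 13 in late spermatocytes none lay above and 6 below, where 35.8% did.

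**Figure D5:**
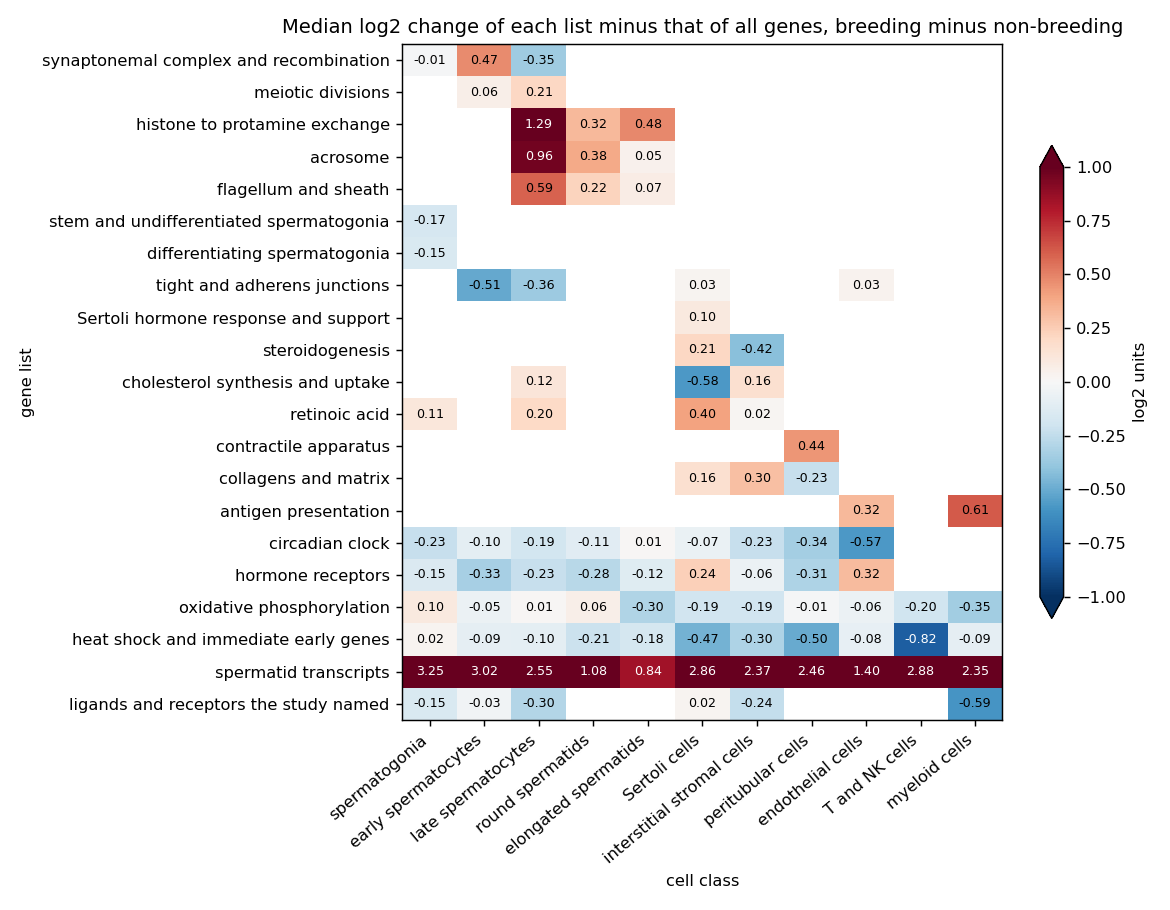
Median log2 difference of each gene list (rows) in each class (columns), minus the median of all genes tested in that class, for lists with at least 5 genes tested; colours stop at 1 in each direction. Spermatid transcripts lie above in every class, from 0.49 in elongated spermatids to 3.21 in spermatogonia before the median of all genes is taken off, and cholesterol genes lie below in Sertoli cells.

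The adult seasonal difference was also set against that of the aged animals by an interaction term. Over the 101040 tests edgeR called 0 genes, and the blocked fit called 3797. An unadjusted p under 0.05 was found in 3389 tests, a smaller fraction than no change would give. REEP6 in spermatogonia differed by 1.93 on the log2 scale between the ages (adjusted p = 0.479), and by 2.06 with the block (adjusted p = 0.00627). In the aged testes elongated spermatids were 26.3% and 42.8% of germ cells in non-breeding and 24.4% and 51.4% in breeding, and early spermatocytes 1.17% and 3.47% against 4.58% and 2.04%. 

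Positions of the genes that carry these differences are given on the Mmul_10 assembly from RefSeq. PRM1 (chromosome 20, 11246410 to 11246909, minus strand) and PRM2 (chromosome 20, 11240869 to 11241726, minus strand) are neighbours in the protamine cluster. SYCP1 lies on chromosome 1 at 109251925 to 109364026, MEIOB on chromosome 20 at 1860079 to 1905590, BMS1 on chromosome 9 at 43541010 to 43554566 and PDE4D on chromosome 6 at 57315151 to 58848161. REEP6 lies on chromosome 19 at 1285419 to 1292759 and TIMP1 on chromosome X at 47528707 to 47532407. The values are sums over each whole gene as counted, and do not separate transcripts.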

How the data were processed

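Single cells of monkey testes were captured in droplets, and the deposited values are raw UMI counts for each gene and barcode, which the authors made with Cell Ranger 9.0.0 against Mmul_10. No label names a matrix, so each of the 12 libraries was mapped to its group through the study's library sheet; of 48 GEO samples, 8 stand for each group. The removal of clusters with high contamination scores and the integration described in the study were not applied. Kept barcodes had 300 or more detected genes, no more than 30000 UMIs and a share of mitochondrial UMIs (13 genes) up to 3%. Scrublet scores were ranked, and 0.8% for each 1000 cells of a library were left out as doublets, a rule chosen after the automatic calls ranged from 0.022% to 12.6% in the adult libraries; libraries under 500 cells had none called. The adult and aged libraries were clustered together, without the prepubertal ones, in scanpy 1.11.5 (2000 variable genes, 30 components, 20 neighbours, Leiden resolution 2), and clusters were named from markers of 13 classes. A difference from names used in the study may come from these rebuilt classes.

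UMI counts were summed over the cells of a class in each library with at least 20 cells and tested in edgeR 4.0.16 (R 4.3.3; filterByExpr, TMM, quasi-likelihood, 8 adult and aged libraries, contrast of adult seasons, Benjamini-Hochberg within the class). Fits with the animal as a block, DESeq2 1.42.0 and other alternatives are described at the end. Free RNA was estimated as the share of spermatid transcripts in a class over that in its whole library, up to 100%, and subtracted in proportion to the library's profile except in spermatids. The sum of these transcripts is thereby lowered by construction, so the subtraction does not test them. Both testes of an animal were sampled, so the animals pair by design. Deviations of the same animal correlated at 0.169 in adult late spermatocytes and 0.148 in adult elongated spermatids. In the aged animals they correlated at 0.565 and 0.4125. The adult values include the small breeding library of animal 2. With 2 libraries in a season at most, unblocked p-values measure the spread between libraries within the adult and aged groups. In all classes but late spermatocytes and elongated spermatids, the 1 breeding library adds nothing to that spread. There 3 residual degrees of freedom (independent values left to estimate the spread) remain in the unblocked fit and 1 in the blocked fit. On simulated counts with known changes, 78 of 100 genes changed 4-fold and 8 of 100 changed 2-fold were recovered in late spermatocytes (13469 genes), 81 and 12 in Sertoli cells (9401 genes) and 74 and 6 in spermatogonia (10180 genes). The simulated libraries shared 1 mean profile and 1 spread for every gene, without differences between animals, in cluster make-up or in free RNA. These shares therefore do not tell how many changes of that size the real libraries would yield. Genes were named by rule: the 3 most abundant members of each list in its classes, members that passed, up to 3 genes in each direction that passed and were not high in spermatids, and the 3 most abundant in each direction that passed with the block and did not overlap, in 4 classes; others are marked in the text. The cells, the 21 lists and the genes were chosen with earlier results of these data known. A floor of 3 UMIs and Wilson intervals cover counting error only.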

Additional observations from a re-analysis of the deposited data

Results flagged for a closer look

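The share of late spermatocytes among germ cells moved in opposite directions in the adult and the aged animals. It was higher in breeding by 1.03 and 22.4 percentage points in the adult animals and lower by 5.37 and 2.14 points in the aged animals, so that the mean seasonal differences lay 15.47 points apart. The difference between the ages was not tested. The adult mean was 11.7 points and became 3.03 points without the breeding library of animal 2, which held 37 late spermatocytes among 98 germ cells.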

How the results depend on the processing

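Since the animals are paired, the fit with the animal as a block stands beside the counts of each class and beside some of the named genes. It gave 483 calls in spermatogonia, 556 in early spermatocytes, 3514 in late spermatocytes, 356 in round spermatids, 245 in elongated spermatids, 705 in Sertoli cells, 961 in stromal cells, 661 in peritubular cells, 326 in endothelial cells, 125 in T and NK cells and 160 in myeloid cells, against 114 in spermatogonia, 1 in peritubular cells and 0 elsewhere without it. Of 50 named changes, 30 passed with the block that did not without it, and 20 stayed on their side. Some were named because they passed with the block, or after their values were seen. This split therefore follows in part from the choice of genes. With the block and without the breeding library of animal 2, chosen after seeing the data, late spermatocytes gave 5389 and elongated spermatids 160, and the other counts were as above. With the block and free RNA subtracted, also chosen after seeing the data, the counts were 15 in spermatogonia, 16 in early spermatocytes, 180 in late spermatocytes, 65 in Sertoli cells, 0 in peritubular cells and 15 in myeloid cells, with 356 in round and 245 in elongated spermatids, from which nothing is subtracted. Stromal, endothelial and T and NK cells did not move from their unblocked counts. DESeq2 called 99 in early spermatocytes, 10 in late spermatocytes, 19 in round spermatids, 36 in Sertoli cells, 87 in stromal cells, 77 in peritubular cells and 2 in myeloid cells. DESeq2's size factors in edgeR gave 8 in peritubular cells and 9 in T and NK cells. With no filter on low counts there were 313 calls in spermatogonia, 273 in early spermatocytes, 126 in round spermatids, 46 in elongated spermatids, 248 in Sertoli cells, 278 in stromal cells, 284 in peritubular cells and 1 in myeloid cells. Free RNA subtracted and doublets kept each gave 0 in spermatogonia and 0 in peritubular cells; without spermatid-high genes these were 6 and 0. Leiden resolution 1 gave 62 calls in peritubular cells and moved the somatic shares of Sertoli cells to -44.985 points and of stromal cells to 43.164, where the breeding library of animal 2 enters with 1 somatic cell, so that both moves rest on that cell. Except where a value above shows it, the cause was not tested. Leaving out each adult library in turn gave 114 to 337 calls in spermatogonia, 0 to 380 in early spermatocytes, 0 to 1223 in late spermatocytes, 0 to 1 in round spermatids, 0 to 14 in elongated spermatids, 0 to 565 in Sertoli cells, 0 to 535 in stromal cells, 0 to 179 in peritubular cells, 0 to 266 in endothelial cells, 0 to 310 in T and NK cells and 0 to 219 in myeloid cells. The shares of germ cells then differed by 25.453 to 43.057 points for elongated spermatids, -22.46 to 9.223 for round spermatids, 3.028 to 20.386 for late spermatocytes, -40.281 to -9.714 for early spermatocytes and -21.709 to -6.982 for spermatogonia, and those of somatic cells by -23.483 to -5.794 for Sertoli cells, 2.914 to 20.05 for stromal cells, -5.081 to 9.319 for peritubular cells, -2.071 to 2.107 for endothelial cells, -0.978 to 3.822 for myeloid cells and -1.827 to 1.195 for T and NK cells. Without the breeding library of animal 1 the somatic shares rest on 3 cells of animal 2, and genes could be tested only in late spermatocytes and elongated spermatids. With PRM1, PRM2, TNP1 and TNP2 alone, spermatid transcripts were higher in the breeding than in the non-breeding testis of animal 1 by 27.3-fold in spermatogonia, 16.1-fold in Sertoli cells, 6.95-fold in stromal cells, 6.68-fold in peritubular cells and 34.4-fold in T and NK cells. Reversed were WFDC2 in Sertoli cells without non-breeding animal 1 (0.02, and -2.54 without non-breeding animal 2), TSPO and FDXR in stromal cells with free RNA subtracted (0.31 and 0.01), and TSPO, FDXR and CYB5A with the block as well (9.33, 6.73 and 8.55). In stromal and peritubular cells the estimate of free RNA reached 100% of UMIs in the non-breeding library of animal 1, so there the subtracted values show no direction, and the absence of calls shows nothing.

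Depth limits the breeding side: 9 of 11 classes rest on 1 breeding library, and where animal 2 has cells, 1 UMI is worth 22.0 CPM in late spermatocytes.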
